A study of Mus musculus with 16 samples.

Results

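The genes of glycolysis and the genes that low oxygen induces were followed through RNA-seq libraries of mouse embryonic stem (ES) cells. The 39 genes were picked by name, as rows of all 3 deposited tables, out of 24320 gene names that the tables share. They comprised 19 genes of glycolytic enzymes, 9 genes of sugar and lactate transport or of the control of glycolysis, and 11 genes outside glycolysis that the hypoxia-inducible factors are known to activate. The rule that picked them used names and no measured value, but it was written with earlier results of these data known. The 16 libraries formed 8 groups of 2. Wild-type cells given 200 µM sodium arsenite, a stressor that binds protein thiols and causes oxidative stress, for 2 h were set against untreated wild-type cells. Untreated Pml-knockout cells were set against untreated wild-type cells. PML builds the nuclear bodies that bear its name. Cells labelled Trim33 knockout were set against cells labelled wild type, in both cases with 50 ng/ml activin A, which activates SMAD2 and SMAD3, or with 10 µM SB431542, which blocks its type I receptors, for 2 h; TRIM33 is a chromatin protein that can bind SMAD proteins. All libraries carry the line name E14Tg2a.IV and the strain label C57BL/6, the growth notes also name the line CCE, and all cells grew without feeder cells in serum and LIF. How the knockouts were made, and whether each is 1 clone, was not stated in the labels.

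Glycolysis splits glucose into pyruvate and yields ATP without oxygen, and lactate dehydrogenase then turns pyruvate into lactate so that the pathway can go on. Many of its steps can be run by several related enzymes, or isozymes, encoded by separate genes. When oxygen is short, the hypoxia-inducible factors HIF1A and EPAS1 are no longer hydroxylated by the EGLN enzymes nor marked for destruction by VHL; with ARNT they bind the DNA core RCGTG and activate genes of glycolysis, mitophagy and blood vessel growth. Mouse ES cells in serum are known to use glycolysis heavily.

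The 250 bases before the gene start (RefSeq, GRCm38.p6; for Ldha and Pdk1 the first of 2 listed starts) are shown for 5 genes of the list that fell with arsenite, because they show how differently the core lies in genes that moved the same way. They are Ldha (chr7:46845554-46845803, plus strand), Pgk1 (chrX:106186850-106187099, plus strand), Hk2 (chr6:82774455-82774704, minus strand), Bnip3 (chr7:138909507-138909756, minus strand) and Pdk1 (chr2:71872974-71873223, plus strand). Each is printed 5′ to 3′ on the strand of its gene, and capitals mark ACGTG or GCGTG on either strand, where the reverse strand reads CACGT or CACGC; adjoining matches run together.
Ldha: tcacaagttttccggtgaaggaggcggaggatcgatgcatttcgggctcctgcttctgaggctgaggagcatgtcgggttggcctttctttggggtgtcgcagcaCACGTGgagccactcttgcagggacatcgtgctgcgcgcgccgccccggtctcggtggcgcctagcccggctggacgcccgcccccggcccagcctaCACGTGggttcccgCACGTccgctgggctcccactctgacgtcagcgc
Pgk1: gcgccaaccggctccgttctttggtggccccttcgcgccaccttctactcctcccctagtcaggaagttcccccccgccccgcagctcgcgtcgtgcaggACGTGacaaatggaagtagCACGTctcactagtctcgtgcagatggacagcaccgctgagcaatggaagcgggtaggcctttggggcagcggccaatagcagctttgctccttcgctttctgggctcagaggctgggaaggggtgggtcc
Hk2: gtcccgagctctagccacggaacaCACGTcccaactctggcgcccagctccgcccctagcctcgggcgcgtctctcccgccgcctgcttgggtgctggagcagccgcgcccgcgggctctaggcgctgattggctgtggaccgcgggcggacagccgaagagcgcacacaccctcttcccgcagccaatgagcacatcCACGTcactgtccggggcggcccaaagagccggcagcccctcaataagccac
Bnip3: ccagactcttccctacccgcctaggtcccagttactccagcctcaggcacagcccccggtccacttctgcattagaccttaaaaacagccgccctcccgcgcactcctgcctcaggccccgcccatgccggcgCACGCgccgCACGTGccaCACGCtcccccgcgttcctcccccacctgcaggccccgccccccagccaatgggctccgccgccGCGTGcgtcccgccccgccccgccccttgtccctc
Pdk1: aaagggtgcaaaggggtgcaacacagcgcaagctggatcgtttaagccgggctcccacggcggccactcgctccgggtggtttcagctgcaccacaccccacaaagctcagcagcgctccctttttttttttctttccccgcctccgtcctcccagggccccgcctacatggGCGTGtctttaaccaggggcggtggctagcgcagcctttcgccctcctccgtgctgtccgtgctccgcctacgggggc
The Ldha window held 5 matches of ACGTG over both strands and none of GCGTG, and 4 of the 5 came from its 2 CACGTG E-boxes, each of which is counted once on either strand. The windows of Pgk1 and Hk2 held 2 matches of ACGTG each and none of GCGTG. Bnip3 held 2 of ACGTG, both in 1 CACGTG, and 3 of GCGTG, and Pdk1 held a single GCGTG. RefSeq entries were found for 35 of the 39 genes, with 50 start sites among them. ACGTG occurred in 46.0% of these 50 windows, against 16.6% of 32851 windows over all genes, and GCGTG in 56.0% against 28.2%. CACGTG occurred in 12.0% against 6.0%, and the AP-1 sequence TGACTCA in 2.0% against 4.5%. Windows of the same gene can overlap, as 2 of the Aldoa windows do, so 1 match can be counted more than once. Shares per gene are given below. These counts describe letters in the windows and show no binding.

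In every library all 10 marker genes of ES cells, Pou5f1, Sox2 and Nanog among them, were above 0. That alone does not identify the cell type, as all 10 trophectoderm markers were above 0 in every library of the Trim33 experiment too. Depth, recovered from the steps of the values, lay between 46700000 and 48500000 reads in the arsenite experiment and between 31200000 and 39500000 reads in the Trim33 experiment; for the Pml table it is unknown. Levels are RPKM (reads scaled to the gene's length and the library's depth) or FPKM (the same for read fragments), and changes are differences on the log2(value + 1) scale with standard errors (SE) from limma, called at an adjusted p under 0.05. The tables were normalised separately, so levels were compared only within a table. Nothing in the labels says that 2 libraries of a group were separate cultures. Each p-value rests on the spread between libraries of the same group, which limma moderates over all genes and which may be technical. In bulk RNA, fewer cells of a type and less RNA per cell cannot be told apart.

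Arsenite lowered many genes of the list within 2 h. Of 38 tested genes, 21 fell and 9 rose, which is 78.9% called, against 67.7% of all 12136 genes tested. The groups did not overlap for 30 of the 38, and for 84.5% of all genes. By direction, 27% of all genes fell and 40.7% rose. The median change over the list was -0.23 on the log2 scale, against 0.08 over all genes. The genes outside glycolysis fell most uniformly, 9 of 11 with 1 rise, and their median was -0.67. The glycolytic enzymes split into 9 that fell and 6 that rose out of 18, and the genes of transport and control into 3 and 2 out of 9. With trimmed-mean scaling the median of all genes moved to -0.07, the share of rises among all calls moved to 41.0%, against 60.1% as deposited, and the list had 26 falls and 6 rises. With quantile normalisation that share was 49.6%, with 22 falls and 11 rises in the list.

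The arsenite libraries lost most of 1 transcript. Ndufa4l2, on chromosome 10 at positions 127514967 to 127517154 of GRCm38, encodes a mitochondrial protein that is induced by HIF1A. It read 0.621 and 0.974 RPKM in arsenite-treated cells, against 14.2 and 17.3 RPKM in untreated cells, a log2 change of -3.22 ± 0.13 (SE, adjusted p = 1.17e-06). Both treated values lie under the filter value of 1, so Ndufa4l2 entered this test only through the untreated libraries, where it is high. Bnip3, which encodes a mitophagy receptor, read 18.9 and 18.7 RPKM in arsenite-treated cells, against 48.1 and 54.6 RPKM in untreated cells (-1.40 ± 0.06, adjusted p = 1.92e-06). In both genes the treated libraries lay far below the untreated ones. Vegfa, the gene of the main growth factor of blood vessels, read 15.2 and 15.1 RPKM with arsenite, against 31.5 and 38.1 RPKM without (-1.14 ± 0.08, adjusted p = 2.01e-05). P4ha1, a collagen prolyl hydroxylase subunit, read 5.39 and 5.88 RPKM with arsenite, against 12.4 and 11.8 RPKM without (-0.98 ± 0.07, adjusted p = 1.86e-05). Its paralogue P4ha2 moved the other way, at 7.06 and 6.89 RPKM with arsenite against 3.94 and 5.41 RPKM without (0.50 ± 0.12, adjusted p = 0.0075), a call that was lost with no filter on low values (adjusted p = 0.161). The other falls were those of Mif, a cytokine gene (-0.74 ± 0.04), Egln3 (-0.67 ± 0.11) and Egln1 (-0.21 ± 0.06), which encode HIF prolyl hydroxylases (the Egln1 call was lost without the second arsenite or the second untreated library), Ankrd37 (-0.63 ± 0.14) and the mitochondrial gene Higd1a (-0.42 ± 0.06). Bnip3l, the paralogue of Bnip3, read 30.3 and 32.1 RPKM with arsenite and 31.4 and 33.2 RPKM without, and its groups overlapped (-0.05 ± 0.05, adjusted p = 0.423). With trimmed-mean scaling Bnip3l was called as a fall.

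**Figure D1:**
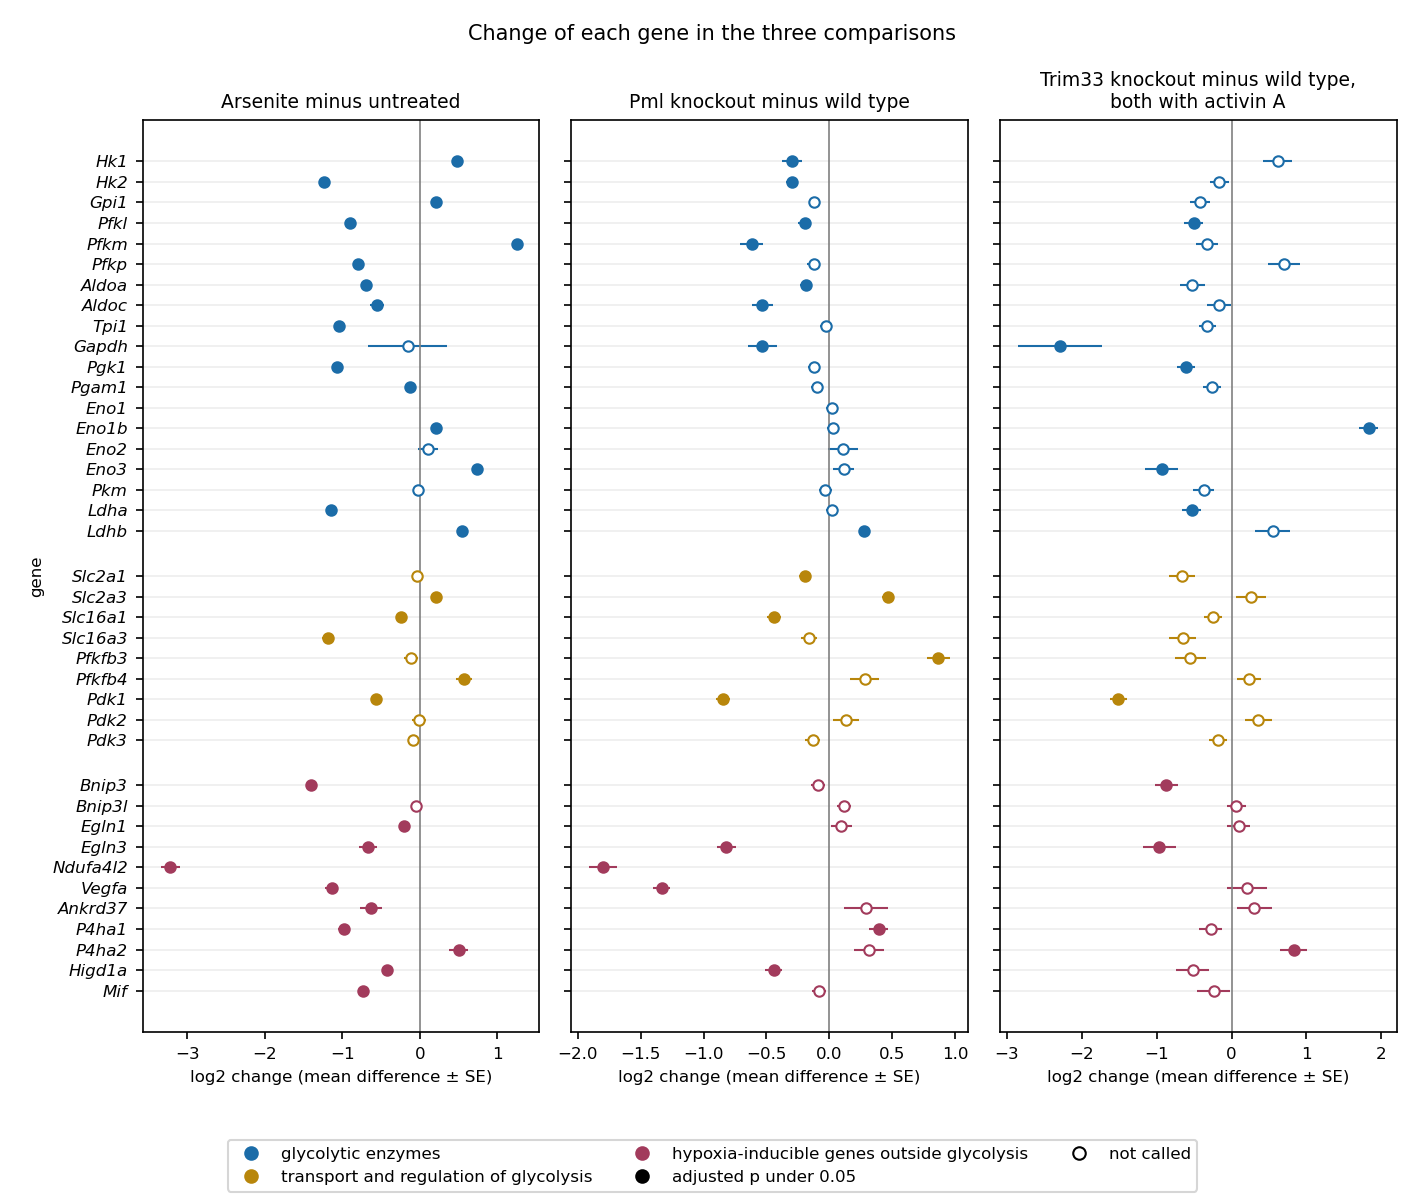
Log2 change of each gene with its SE in arsenite-treated against untreated cells, in Pml-knockout against wild-type cells, and in Trim33-knockout against wild-type cells with activin A (2 libraries per group; filled points have an adjusted p under 0.05 in limma; each panel has its own scale). Ndufa4l2 lies farthest to the left in the arsenite and Pml panels, at -3.22 and -1.80, and Gapdh has the widest error in the arsenite and Trim33 panels.

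Along the glycolytic chain, falls with arsenite were called at several steps, among them the first, that of hexokinase, and the last, that of lactate dehydrogenase. No fall was called as deposited for Gpi1, Gapdh, Pkm or any enolase gene tested. Hk2, a hexokinase that traps glucose in the cell, read 23.2 and 22.9 RPKM in arsenite-treated cells, against 54.6 and 56.5 RPKM in untreated cells (-1.23 ± 0.04, adjusted p = 6.96e-07). Tpi1, triose phosphate isomerase, read 111.6 and 111.2 RPKM with arsenite, against 232.3 and 229 RPKM without (-1.04 ± 0.03, adjusted p = 5.94e-07). Ldha, the lactate dehydrogenase subunit that favours lactate, read 149.2 and 158 RPKM with arsenite, against 339 and 341.5 RPKM without (-1.14 ± 0.04, adjusted p = 7.45e-07). In all of these each treated library stood below 0.5 of either untreated one. Pgk1, phosphoglycerate kinase, read 226.6 and 231.6 RPKM with arsenite and 470.3 and 494.7 RPKM without (-1.07 ± 0.04, adjusted p = 9.56e-07). The other enzymes that fell were Pfkl (-0.90 ± 0.04) and Pfkp (-0.80 ± 0.05), phosphofructokinases, Aldoa (-0.69 ± 0.04) and Aldoc (-0.55 ± 0.09), aldolases, and Pgam1, phosphoglycerate mutase (-0.13 ± 0.04, adjusted p = 0.0243). The Pgam1 call is the weakest: it was lost without the first arsenite library or without either untreated library, and with quantile normalisation the value was 0.05. Pkm, the pyruvate kinase gene, read 952.7 and 994.7 RPKM with arsenite and 994.3 and 978.8 RPKM without, overlapping values (-0.02 ± 0.04, adjusted p = 0.703). Its call depended on the scaling. With trimmed-mean scaling Pkm was called as a fall, and with quantile normalisation as a rise (0.26, adjusted p = 4.46e-04 in limma).

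Isozymes of the same step moved in opposite directions. Pfkm, the muscle-type phosphofructokinase gene on chromosome 15 (positions 98092589 to 98132451), read 17.1 and 17.0 RPKM in arsenite-treated cells, against 6.41 and 6.76 RPKM in untreated cells (1.25 ± 0.06, adjusted p = 2.71e-06), while Pfkl and Pfkp fell. As a share of the summed RPKM of the 3 phosphofructokinase genes, Pfkm took 17.7% and 16.8% with arsenite, against 4.15% and 4.27% without. The sum itself was 96.4 and 101.3 RPKM with arsenite and 154.4 and 158.4 RPKM without. Ldhb, the subunit that favours pyruvate, read 445.7 and 480.4 RPKM with arsenite, against 322.5 and 311.9 RPKM without (0.54 ± 0.05, adjusted p = 4.21e-05). It made up 74.9% and 75.2% of the summed lactate dehydrogenase RPKM with arsenite, against 48.8% and 47.7% without. That sum was 595 and 638.4 RPKM with arsenite and 661.6 and 653.4 RPKM without. Hk1, the other hexokinase, read 18.9 and 20.1 RPKM with arsenite, against 13.3 and 14.2 RPKM without (0.48 ± 0.06, adjusted p = 2.65e-04), and its share of both hexokinases was 44.9% and 46.7% with arsenite and 19.6% and 20.1% without. Shares within a library do not change when all its values are multiplied by 1 factor. Quantile normalisation can change them, and shares were computed on the deposited values only. Eno3, the muscle-type enolase gene, read 12.2 and 11.7 RPKM with arsenite, against 6.99 and 6.56 RPKM without (0.74 ± 0.07, adjusted p = 5.31e-05). Gpi1, glucose phosphate isomerase (0.21 ± 0.04), and Eno1b (0.20 ± 0.04) also rose, but both calls were lost with trimmed-mean scaling. Eno2, the neuronal enolase gene, read 2.62 and 3.48 RPKM with arsenite and 2.49 and 2.997 RPKM without (0.11 ± 0.13, adjusted p = 0.469).

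**Figure D2:**
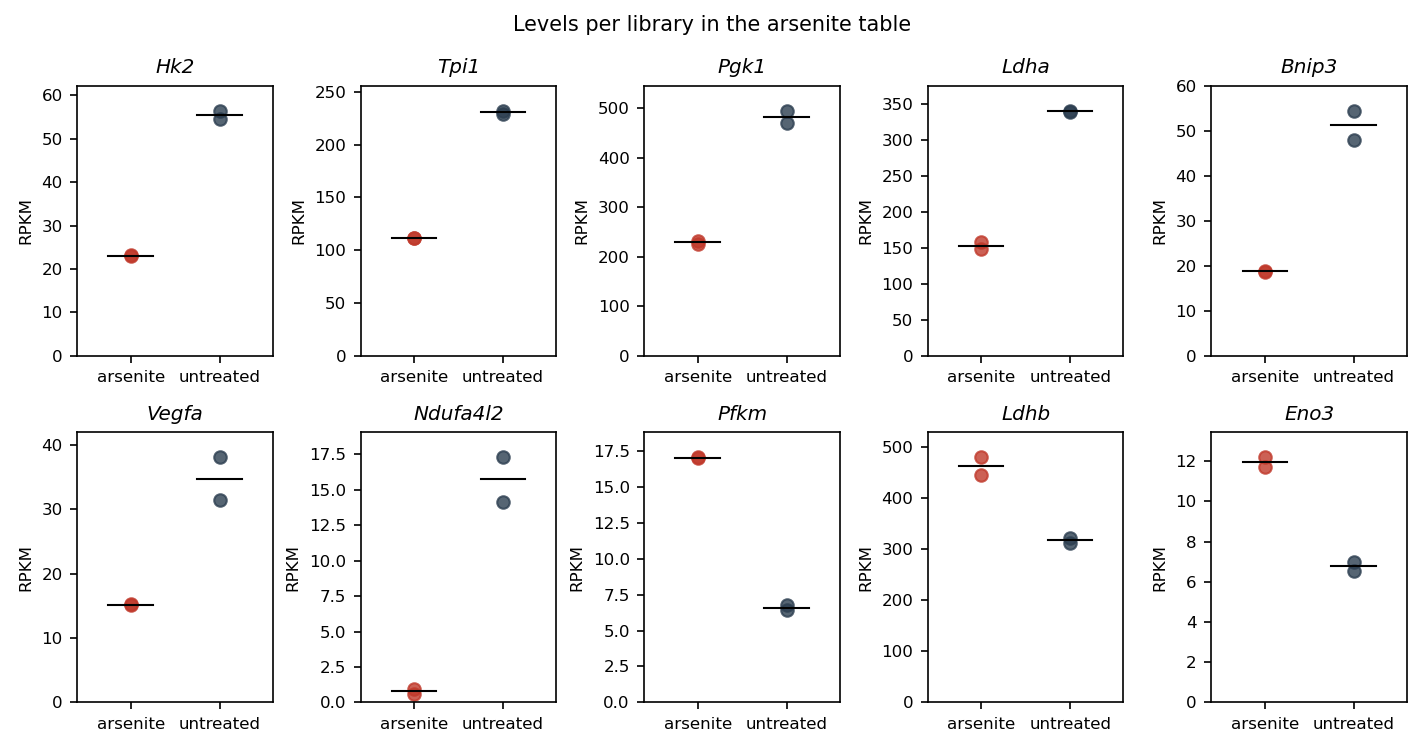
RPKM of 10 genes in each arsenite-treated and untreated library (points; bars are the means of 2 libraries; every axis starts at 0). Hk2, Tpi1, Pgk1, Ldha, Bnip3, Vegfa and Ndufa4l2 are lower in both treated libraries, and Pfkm, Ldhb and Eno3 are higher in both.

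**Figure D3:**
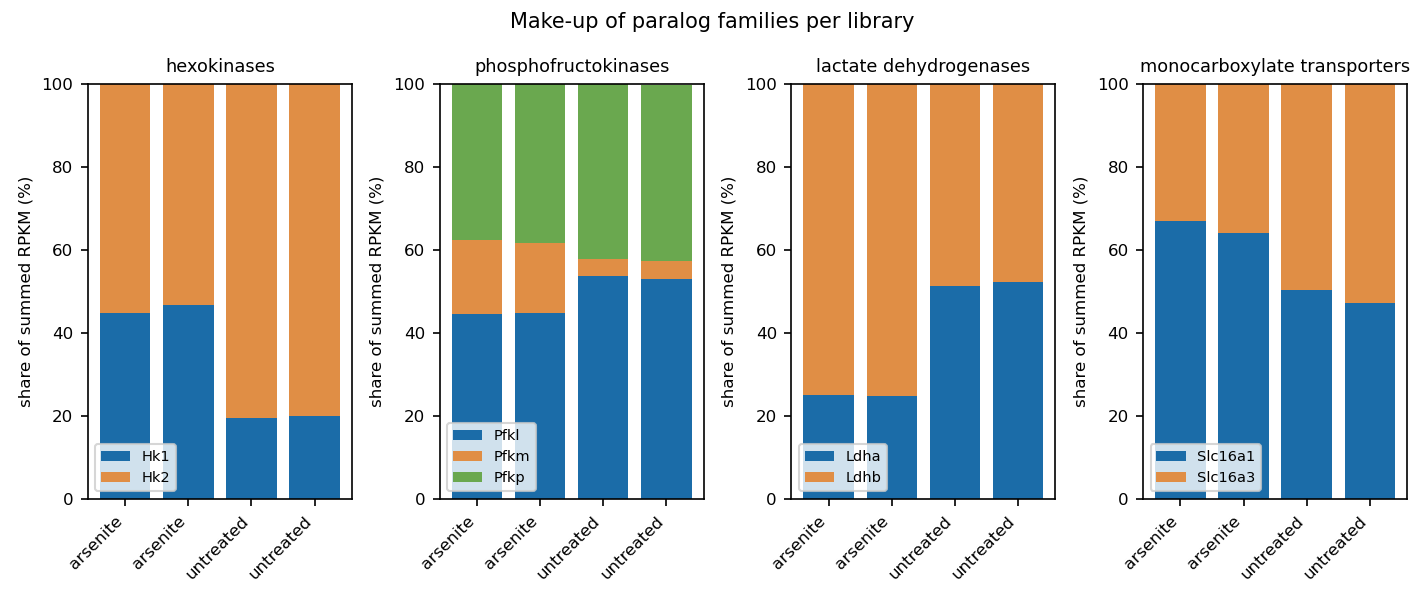
Share of each paralogue in the summed RPKM of its family, in the 2 arsenite-treated and the 2 untreated libraries. Ldhb takes 74.9% and 75.2% of lactate dehydrogenase with arsenite against 48.8% and 47.7% without, and Pfkm takes 17.7% and 16.8% of phosphofructokinase against 4.15% and 4.27%.

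Transporters also divided. Slc16a3, a lactate exporter gene, read 10.8 and 11.7 RPKM in arsenite-treated cells, against 25.4 and 28.3 RPKM in untreated cells (-1.19 ± 0.07, adjusted p = 6.22e-06). Slc16a1, a carrier for lactate and pyruvate, fell less, with 21.9 and 20.9 RPKM with arsenite and 25.8 and 25.5 RPKM without (-0.25 ± 0.05, adjusted p = 0.00252). Pdk1, a kinase that keeps pyruvate out of the mitochondrial cycle, read 26.6 and 25.7 RPKM with arsenite and 38.7 and 39.9 RPKM without (-0.57 ± 0.04, adjusted p = 2.70e-05). For these 3 genes the groups did not overlap. The glucose transporter gene Slc2a3 rose by 0.20 ± 0.04, a call lost with trimmed-mean scaling, and Pfkfb4, a kinase that raises an activator of phosphofructokinase, rose by 0.57 ± 0.11 (adjusted p = 0.00211) at levels of 2.07 and 1.78 RPKM with arsenite and 1.03 and 0.902 RPKM without. Of its untreated libraries, only the first reached the filter value of 1. Slc2a1 (-0.03 ± 0.04), Pfkfb3 (-0.11 ± 0.10), Pdk2 (-0.01 ± 0.09) and Pdk3 (-0.08 ± 0.07) did not pass as deposited. Pfkfb3 and Pdk3 were called as falls with trimmed-mean scaling and with quantile normalisation. Slc2a1 was called as a fall with trimmed-mean scaling but as a rise with quantile normalisation (0.12, adjusted p = 0.0192 in limma). Over the arsenite comparison, 21 of the 30 calls remained under every alternative processing.

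Among 20 genes that fell with arsenite and have a promoter entry, 13 held ACGTG at a start site, 13 held GCGTG and 18 held either. Among the 7 that rose the counts were 2, 6 and 6. Among the 7 not called they were 5, 4 and 6. Counted per gene in the same way, ACGTG occurred in 57.1% of the 35 genes of the list with an entry and in 18.5% of all genes. GCGTG occurred in 68.6% and 30.9%. These small counts are a description and were not tested.

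Other genes of the oxygen pathway, from lists chosen with earlier results of these data known, moved in both directions with arsenite. Of 12 HIF pathway genes, 7 fell and 2 rose, which is 75% called against the 67.7% of all genes, with a median of -0.182. Vhl read 8.68 and 9.57 RPKM with arsenite, against 14.9 and 16.5 RPKM without (-0.72 ± 0.07, adjusted p = 1.05e-04), and Cul2, which works with it in the same ubiquitin ligase, changed by -0.41 ± 0.05. Arnt2 changed by -0.63 ± 0.09 and Epas1 by -0.62 ± 0.09, while Hif1a read 46.6 and 46.5 RPKM with arsenite and 47.6 and 46.9 RPKM without (-0.02 ± 0.04, adjusted p = 0.646). The messenger RNA level of Hif1a does not measure its protein, which is controlled by degradation. Of 26 further hypoxia-inducible genes, 13 fell and 8 rose (80.8% called, median -0.138), with Ddit4, an inhibitor of mTOR (-1.94 ± 0.05), Stc2, a secreted glycoprotein (-1.12 ± 0.05), and Ero1l, an oxidase of the endoplasmic reticulum (-0.79 ± 0.05), having the smallest p. Of 27 further enzymes and carriers of glucose and pyruvate, 12 rose and 5 fell (63% called, median 0.097). Pck2, the mitochondrial enzyme that makes phosphoenolpyruvate, changed by -1.44 ± 0.04 and Fbp2, a fructose bisphosphatase, by 1.54 ± 0.11. Pklr, the other pyruvate kinase gene, read 2.68 and 2.43 RPKM with arsenite, against 0.640 and 0.604 RPKM without (1.13 ± 0.10). Both untreated values lie under the filter value of 1, so Pklr entered the test only through the arsenite libraries, where it is high. Markers moved beside these groups: the summed RPKM of 10 ES-cell markers was 2872 and 2756 with arsenite and 5474 and 5397 without, that of 10 trophectoderm markers 170.8 and 174 against 96.4 and 98.02, and that of 10 fibroblast markers 159.3 and 161.8 against 68.5 and 68.1. Of the tested markers, 9 of 10 of ES cells fell and 1 rose, 7 of 8 of trophectoderm rose and 1 fell, and 3 of 4 of fibroblasts rose and 1 fell. The 8 primitive endoderm markers summed to 20.6 and 22.3 RPKM with arsenite and 17.6 and 16.5 without, and of 5 tested 3 rose and 1 fell. Elf5 was at 0 in both treated libraries, and 1 trophectoderm marker was at 0 in the second untreated library too. Lum was at 0 in all 4, and Postn and Dcn in some. Their part in the changes was not tested.

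In the Pml table, the targeted gene read 32.0 and 33.5 FPKM in knockout cells, against 49.9 and 45.1 FPKM in wild-type cells, lower but not lost; the table has 1 value per gene and does not show which exons remain. Eif2s3y, a Y-linked gene, read 1.102 and 0.753 FPKM in knockout cells, against 16.2 and 20.6 FPKM in wild-type cells, so that another difference between the lines cannot be told apart from the knockout. All 39 genes were tested, and 14 fell and 4 rose, which is 46.2% called, against 35.5% of all 11648 genes tested. The groups did not overlap for 32 of the 39, and for 69.4% of all genes. By direction, 18.9% of all genes fell and 16.6% rose. The median change was -0.10 over the list and -0.02 over all genes. Among the enzymes 7 fell and 1 rose of 19, among transport and control genes 3 fell and 2 rose of 9, and among the hypoxia-inducible genes outside glycolysis 4 fell and 1 rose of 11. Without a filter on low values 7 of the list fell and 3 rose.

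The 2 largest falls in the Pml knockout were outside glycolysis. Ndufa4l2 read 2.87 and 2.21 FPKM in knockout cells, against 11.7 and 10.8 FPKM in wild-type cells (-1.80 ± 0.11, adjusted p = 8.72e-06). Vegfa read 9.21 and 9.46 FPKM in knockout cells, against 25.7 and 24.4 FPKM in wild-type cells (-1.33 ± 0.07, adjusted p = 2.76e-06). Egln3 read 6.53 and 6.54 FPKM in knockout cells, against 12.7 and 11.9 FPKM in wild-type cells (-0.82 ± 0.08, adjusted p = 1.11e-04). For each of these the knockout libraries lay well below the wild-type ones, and the calls remained under every alternative. Higd1a fell by 0.44 ± 0.07, and P4ha1 rose by 0.39 ± 0.08, but both calls were lost with no filter on low values. Bnip3 read 72.9 and 68.8 FPKM in knockout cells and 73.9 and 77.1 FPKM in wild-type cells (-0.09 ± 0.05, adjusted p = 0.221). Mif, Egln1, Bnip3l, P4ha2 and Ankrd37 did not pass as deposited, with values of -0.08, 0.09, 0.12, 0.32 and 0.29. Without single libraries P4ha2 and Ankrd37 gained a call as rises.

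Among transport and control genes of the Pml table, Pdk1 read 32.9 and 33.1 FPKM in knockout cells, against 58.8 and 61.3 FPKM in wild-type cells (-0.84 ± 0.05, adjusted p = 1.02e-05). Pfkfb3, which makes the activator of phosphofructokinase, read 7.61 and 8.49 FPKM in knockout cells, against 3.89 and 4.03 FPKM in wild-type cells (0.87 ± 0.09, adjusted p = 1.94e-04). The glucose transporters parted: Slc2a3 read 351.9 and 356.3 FPKM in knockout cells, against 262.9 and 249.4 FPKM in wild-type cells (0.47 ± 0.05, adjusted p = 1.50e-04). Slc2a1 read 265.6 and 268.3 FPKM in knockout cells, against 313.5 and 298 FPKM in wild-type cells (-0.19 ± 0.05, adjusted p = 0.0127). That call was lost without either knockout library and with no filter on low values. Slc2a3 held 56.99% and 57.04% of the summed FPKM of both in knockout cells, against 45.6% in each wild-type library. Slc16a1 fell by 0.44 ± 0.06, and Slc16a3 (-0.16 ± 0.06), Pfkfb4 (0.28 ± 0.11), Pdk2 (0.13 ± 0.10) and Pdk3 (-0.13 ± 0.06) did not pass as deposited. Pdk3 gained a call as a fall with no filter on low values, and Slc16a3 without the second wild-type library.

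The changes of the glycolytic enzymes in the Pml knockout lay between -0.62 and 0.28. The falls with the largest size were those of Pfkm (-0.62 ± 0.09), Gapdh (-0.53 ± 0.12) and Aldoc (-0.53 ± 0.08), and Ldhb rose by 0.28 ± 0.04. With no filter on low values Pfkm, Gapdh and Aldoc lost the call, as did Hk1, Pfkl and Aldoa. Hk1 (-0.30 ± 0.08), Hk2 (-0.30 ± 0.05), Pfkl (-0.20 ± 0.05) and Aldoa (-0.18 ± 0.05) also fell, of which Hk1, Pfkl and Aldoa lost the call without single libraries. Ldha read 1416 and 1365 FPKM in knockout cells and 1378 and 1359 FPKM in wild-type cells, overlapping values (0.02 ± 0.05, adjusted p = 0.736). Pkm, Tpi1, Eno1 and Eno1b also overlapped between the groups, with changes between -0.03 and 0.03. Gpi1, Pfkp, Pgk1, Pgam1, Eno2 and Eno3 ranged from -0.12 to 0.11 and did not pass as deposited. Of these, Pgk1 gained a call as a fall with quantile normalisation. The summed FPKM of all 19 enzymes was 9422 and 9149 in knockout cells and 9744 and 9485 in wild-type cells.

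In the Pml table Epas1 read 5.02 and 4.49 FPKM in knockout cells, against 11.6 and 11.3 FPKM in wild-type cells (-1.12 ± 0.09, adjusted p = 3.12e-05), and Hif1a read 34.2 and 33.2 FPKM against 29.4 and 30.0 FPKM (0.18 ± 0.06, adjusted p = 0.0384). Arnt, the partner of both, changed by -0.19 ± 0.06, and Vhl by 0.03 ± 0.09 (adjusted p = 0.837). Of the 12 HIF pathway genes 3 fell and 1 rose, which is 33.3% called against the 35.5% of all genes. Of 27 further hypoxia-inducible genes 10 rose and 6 fell (59.3% called). Cited2, a brake on HIF1A, rose by 1.00, while Stc2 fell by 1.55. Of 22 further enzymes and carriers 9 fell and 2 rose (50% called), with Pck2 at -2.35, Fbp2 at 1.13 and Adpgk, an ADP-dependent glucokinase, at -0.43. Markers of other cell types differed as well: the summed FPKM of 10 trophectoderm markers was 746.8 and 758.5 in knockout cells and 71.96 and 67.0 in wild-type cells, and that of 10 fibroblast markers 535 and 564.6 against 106.1 and 107.6. The sum of the ES-cell markers was 8055 and 7796 in knockout cells and 8205 and 8225 in wild-type cells. Of the tested markers, 9 of 9 of trophectoderm rose, 6 of 7 of fibroblasts rose and 1 fell, and 5 of 10 of ES cells fell. The 8 primitive endoderm markers summed to 9.97 and 9.47 FPKM in knockout cells and 17.6 and 16.8 FPKM in wild-type cells, and 3 of 4 tested fell. Lum and Postn were at 0 in both wild-type libraries, and Elf5 and Dcn in single libraries. The part of these differences in the changes of the list was not tested.

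The Pml and arsenite tables share no libraries. Of the 38 genes tested in both, 10 fell in both, namely Hk2, Pfkl, Aldoa, Aldoc, Slc16a1, Pdk1, Egln3, Ndufa4l2, Vegfa and Higd1a, and Ldhb and Slc2a3 rose in both. That is 26.3% and 5.26% of the list, against 8.42% and 9.87% of the 11162 genes tested in both tables. With no filter on low values, Pfkl, Aldoa, Aldoc and Higd1a lost the Pml call and Aldoc and Egln3 the arsenite call, which left 5 of the 10. P4ha1 rose in the Pml knockout but fell under arsenite, while Hk1 and Pfkm did the opposite. Pgk1, Tpi1, Ldha, Bnip3 and Slc16a3, whose arsenite changes were between -1.40 and -1.04, were among 10 genes that fell with arsenite. These 10 did not pass in the Pml table as deposited, where the changes of those named were between -0.16 and 0.02. In that table Pgk1 gained a call as a fall with quantile normalisation, and Slc16a3 gained it without the second wild-type library.

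In the Trim33 table the SB431542 libraries went against their genotype labels. Trim33 itself read 2.53 and 2.79 RPKM in the libraries labelled knockout and given activin A, against 20.1 and 23.5 RPKM in their wild-type counterparts. With SB431542 it read 18.3 and 24.6 RPKM in libraries labelled knockout, against 2.94 and 2.44 RPKM in those labelled wild type. Eif2s3y followed the same arrangement, with 0.0651 and 0 RPKM against 38.3 and 41.0 RPKM with activin A, and 39.96 and 38.5 RPKM against 0.143 and 0.0647 RPKM with SB431542. With activin A the groups thus follow the labels but differ in a Y-linked gene as well, so that another difference between the lines cannot be told apart from the knockout. The SB431542 groups are called by their labels below.

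With activin A, 10 of 36 tested genes of the list differed between Trim33-knockout and wild-type cells, 8 lower and 2 higher in the knockout. That is 27.8%, against 9.43% of all 11914 genes tested, and by direction 2.82% of all genes were lower and 6.61% higher. The median change was -0.27 over the list and 0.01 over all genes. Most of these calls are close to the threshold. Without the first knockout library 2 were lower and 1 higher, without the second knockout library 3 and 1, without the first wild-type library 1 and 1, and without the second wild-type library 1 and 1. Pdk1 and Eno1b alone kept their calls in each of these 4 fits and under every other alternative. With trimmed-mean scaling the higher genes made up 58.6% of all calls and with quantile normalisation 59.5%, against 70.1% as deposited; the list had 8 lower and 2 higher with the first and 11 lower and 2 higher with the second.

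Pdk1, on chromosome 2 at positions 71873224 to 71903858, read 18.3 and 17.5 RPKM in Trim33-knockout cells with activin A, against 55.7 and 50.2 RPKM in wild-type cells with activin A (-1.51 ± 0.12, adjusted p = 3.28e-04). The values of the related kinases Pdk3 (-0.18 ± 0.12) and Pdk2 (0.36 ± 0.18) did not pass. Pdk1 made up 48.6% and 47.0% of the summed RPKM of the 3 kinase genes in the knockout libraries, against 72.5% and 69.6% in the wild-type libraries. Bnip3 read 14.7 and 11.3 RPKM in knockout cells, against 26.3 and 22.6 RPKM in wild-type cells (-0.87 ± 0.15, adjusted p = 0.0131). Egln3 read 2.35 and 3.88 RPKM in knockout cells, against 7.61 and 6.22 RPKM in wild-type cells (-0.96 ± 0.22, adjusted p = 0.03). For these 3 genes the groups did not overlap, but neither did those of uncalled genes such as Hk2, Aldoc and Bnip3l. The share of all genes with groups apart was not computed for this comparison. Pgk1 (-0.60 ± 0.12), Ldha (-0.53 ± 0.13), Pfkl (-0.51 ± 0.13) and Eno3 (-0.94 ± 0.22) were also lower, as was Gapdh, whose libraries disagree. P4ha2 was higher, with 6.92 and 5.36 RPKM in knockout cells against 3.06 and 2.93 RPKM in wild-type cells (0.83 ± 0.18, adjusted p = 0.0249). Slc2a1 (-0.66 ± 0.18, adjusted p = 0.0514) and Slc16a3 (-0.65 ± 0.18, adjusted p = 0.0533) lay just outside the threshold, and were called in a fit of the 4 activin A libraries alone (adjusted p = 0.0261 and 0.0217). Vegfa read 3.89 and 2.45 RPKM in knockout cells and 3.57 and 1.78 RPKM in wild-type cells, overlapping values (0.21 ± 0.27, adjusted p = 0.688), and Hk2 changed by -0.16 ± 0.13. Ndufa4l2 stayed under 1 RPKM in all 8 libraries of this table and was not tested.

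**Figure D4:**
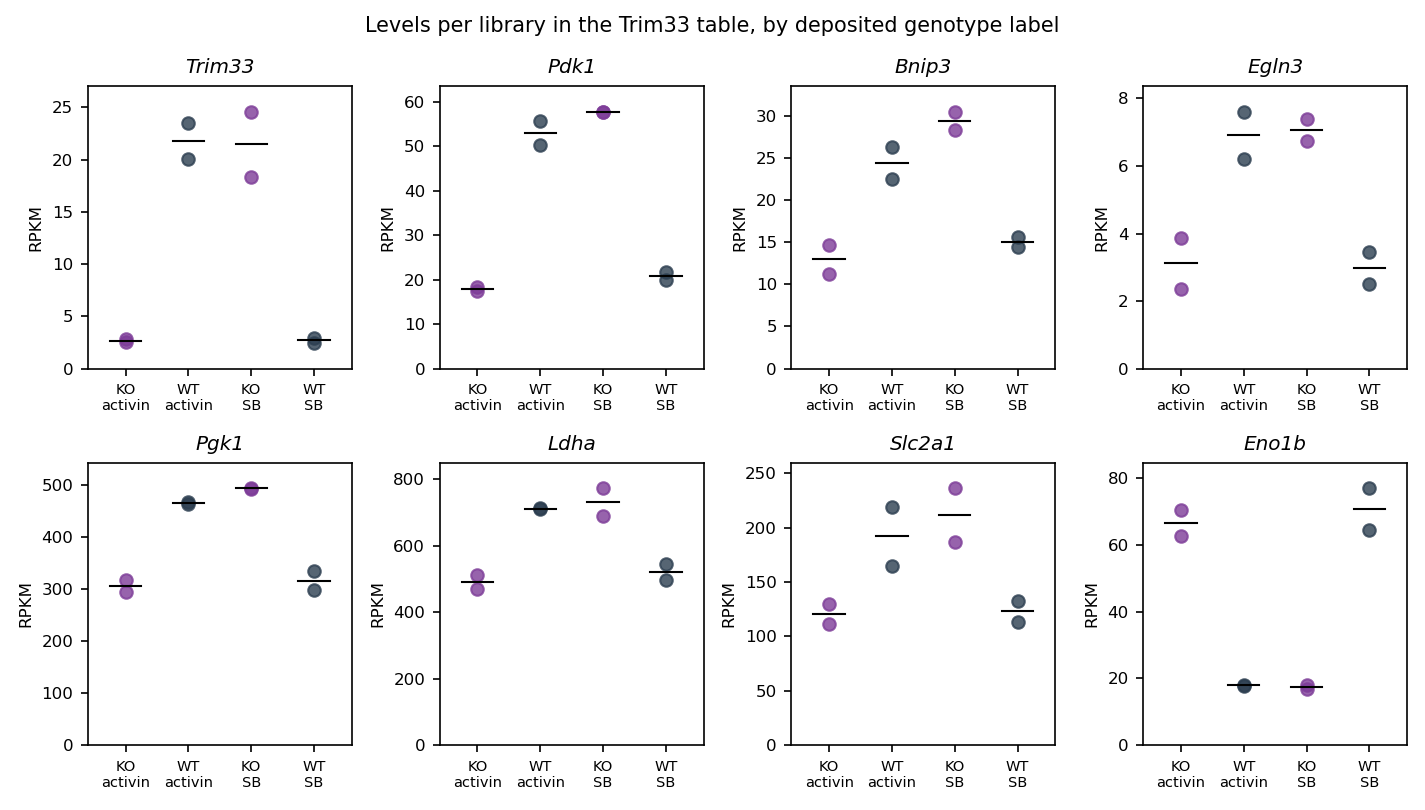
RPKM of Trim33 and of 7 genes of the list in each library of the Trim33 table, by deposited genotype label and agent (points; bars are the means of 2 libraries; every axis starts at 0). Trim33 is low in the activin A libraries labelled knockout and in the SB431542 libraries labelled wild type, and in the same 4 libraries Pdk1 lies between 17.5 and 21.8 RPKM against 50.2 to 57.8 RPKM in the others.

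With SB431542, 10 of the 36 genes differed between the libraries labelled knockout and those labelled wild type, 9 higher and 1 lower in those labelled knockout, which is 27.8%, against 9.56% of all genes tested. By direction, 3.01% of all genes were higher and 6.55% lower. The 9 were Pfkl, Pfkm, Pgk1, Eno3, Slc2a1, Slc16a3, Pdk1, Bnip3 and Egln3, and the lower gene was Eno1b. Pdk1 read 57.6 and 57.8 RPKM in libraries labelled knockout with SB431542, against 19.95 and 21.8 RPKM in the libraries labelled wild type with SB431542 (1.43 ± 0.12, adjusted p = 3.66e-04). Bnip3 read 28.4 and 30.5 RPKM against 14.4 and 15.6 RPKM (0.93 ± 0.15, adjusted p = 0.00964). Without the first library labelled knockout 3 genes were higher, without the first labelled wild type 1, without the second labelled wild type 5, and without the second labelled knockout 7. With trimmed-mean scaling the higher genes were 41.7% of all calls and with quantile normalisation 40.4%, against 31.5% as deposited. The sign of the label difference was opposite under the 2 agents for 33 of the 36 genes, 91.7%, as it was for 86.2% of all genes. The difference of these differences passed for 22 of the 36, against 26.3% of all genes; it was above 0 for 6 and below 0 for 16, against 16.1% and 10.1% of all genes. There were 13 calls without the first wild-type library with activin A. Among all genes the positive share of those calls was 50.7% with trimmed-mean scaling and 50.4% with quantile normalisation, against 61.5% as deposited.

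Activin A against SB431542, averaged over both genotype labels so that the contradicted labels cancel, gave no call in the list. In limma 0 of 36 passed, against 0.109% of all genes, and 0 of 36 had an unadjusted p under 0.05, against 3.03% of all genes; no other test was run. The changes ran from -0.23 for Bnip3 to 0.87 for Gapdh, with a median of -0.06 against -0.01 over all genes, and with SEs of 0.08 to 0.40. Both groups of 4 libraries overlapped for each gene. Of the further hypoxia-inducible genes, Bhlhe40, a transcription repressor gene, was higher with activin A (0.97 ± 0.11, adjusted p = 0.016).

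Of the other lists with activin A in Trim33-knockout against wild-type cells, 1 of 11 HIF pathway genes was lower (9.09%, against 9.43% of all genes), namely Arnt2 (-0.77 ± 0.19), and 2 of 28 further hypoxia-inducible genes were higher and 1 lower (10.7%), namely Tmem45a (0.78 ± 0.15), Angptl4, an inhibitor of lipoprotein lipase (0.65 ± 0.16), and Pgm2 (-0.88 ± 0.19). Of 26 further enzymes and carriers 4 were higher and none lower (15.4%). Fbp2 read 6.59 and 4.82 RPKM in knockout cells, against 0.372 and 0.347 RPKM in wild-type cells (2.29 ± 0.23, adjusted p = 0.00115), and Ldhc, the testis lactate dehydrogenase (0.81 ± 0.17), and Tigar, a fructose bisphosphatase (0.54 ± 0.13), followed. Among the libraries with activin A, only the knockout ones reached the filter value of 1 for Fbp2. Hif1a (-0.17 ± 0.16), Epas1 (0.34 ± 0.14) and Vhl (0.45 ± 0.16) did not pass. With SB431542, 0 of the 11 HIF pathway genes passed in limma, the only test run, against 9.56% of all genes. Of these 11, 3 had an unadjusted p under 0.05, against 25.9% of all genes. Of the 28 hypoxia-inducible genes, 2 were higher and 2 lower in the libraries labelled knockout (14.3% called). Bhlhe40 at 0.84, Pgm2 at 0.92 and Angptl4 at -0.73 had the smallest p. Of the 26 enzymes and carriers, 3 were lower (11.5% called), namely Fbp2 at -2.33, Ldhc at -0.99 and Tigar at -0.67. Summed markers of trophectoderm in this table ran from 198.7 to 279 RPKM in knockout and from 153.3 to 206.4 RPKM in wild-type libraries with activin A, and overlapped. Of 9 tested trophectoderm markers 7 had a positive change with activin A (median 0.409, 1 called). With SB431542 the sums were 206 and 151.7 RPKM in the libraries labelled knockout and 269.7 and 190.7 RPKM in those labelled wild type, and all 9 changes were negative (median -0.359, 1 called). The sums of fibroblast markers with activin A were 356.5 and 216.6 RPKM in knockout and 222.4 and 251.1 RPKM in wild-type libraries and overlapped too. Of 7 tested fibroblast markers 6 had a positive change with activin A (median 0.212, 1 called) and 3 with SB431542 (median -0.07, none called). With SB431542 their sums were 244.7 and 235.1 RPKM in libraries labelled knockout and 338.2 and 199.4 RPKM in those labelled wild type. Of 10 ES-cell markers 1 was called higher with activin A (median -0.045) and 2 lower with SB431542 (median 0.069). Of 3 tested primitive endoderm markers none was called. The part of these markers in the changes of the list was not tested.

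Some genes of the list have near-identical copies, so their values depend on how reads were assigned, a step that the sources at hand do not describe. Of the 50-base words in the longest transcript of Gapdh, 82.5% occur in transcripts of other genes, and 222 other genes share a word with it. Its libraries disagreed: it read 6.97 and 28.5 RPKM with arsenite and 13.2 and 19.6 RPKM without, and 17.7 and 17.9 RPKM in Trim33-knockout cells with activin A, against 149.7 and 55.6 RPKM in wild-type cells with activin A. In 4 of the 8 groups the difference between its libraries exceeded that of 99% of all genes. In the Pml table it read 31.2 and 42.3 FPKM in knockout cells, against 52.45 and 53.5 FPKM in wild-type cells. The difference between its Pml-knockout libraries exceeded that of 98.1% of all genes. Without the first arsenite library its arsenite change was 0.79 (adjusted p = 0.00811), and without the second -1.10 (adjusted p = 0.00224), so no direction can be given for it there. Its fall in the Trim33 knockout (-2.29 ± 0.56, adjusted p = 0.0385) was lost without any 1 of those 4 libraries. Of the other genes of the list only Ankrd37 exceeded that bound, in 1 group.

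The enolase genes Eno1 and Eno1b share 70.5% and 75.3% of their words with each other. Eno1 read 1590 and 1534 FPKM in Pml-knockout cells and 1568 and 1519 FPKM in wild-type cells, yet it was listed at 0 in all 4 libraries of the arsenite table and at 0 to 0.0722 RPKM in the Trim33 table, where Eno1b stood at 16.8 to 77.0 RPKM. A gene that glycolysis needs cannot be read as silent from such zeros. Eno1b read 62.6 and 70.4 RPKM in Trim33-knockout cells with activin A, against 17.7 and 18.1 RPKM in wild-type cells with activin A (1.83 ± 0.13, adjusted p = 3.13e-04). With SB431542 it read 16.8 and 17.9 RPKM in the libraries labelled knockout, against 64.5 and 77.0 RPKM in the libraries labelled wild type (-1.96 ± 0.13, adjusted p = 2.53e-04). Its libraries differed by less than the 99th percentile of all genes in every group, but which of the 2 genes the reads came from is uncertain. The groups of Pgk1 (68.0% of words in other genes), Mif (76.4%), Bnip3 (62.5%) and Pgam1 (41.5%) differed between libraries by less than the 99th percentile of all genes too, at most by 0.518 on the log2 scale, for Mif, and their values are uncertain in the same sense. Ndufa4l2, Pdk1, Hk2, Pfkm, Slc16a3 and Egln3 share no 50-base word with another gene.

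**Figure D5:**
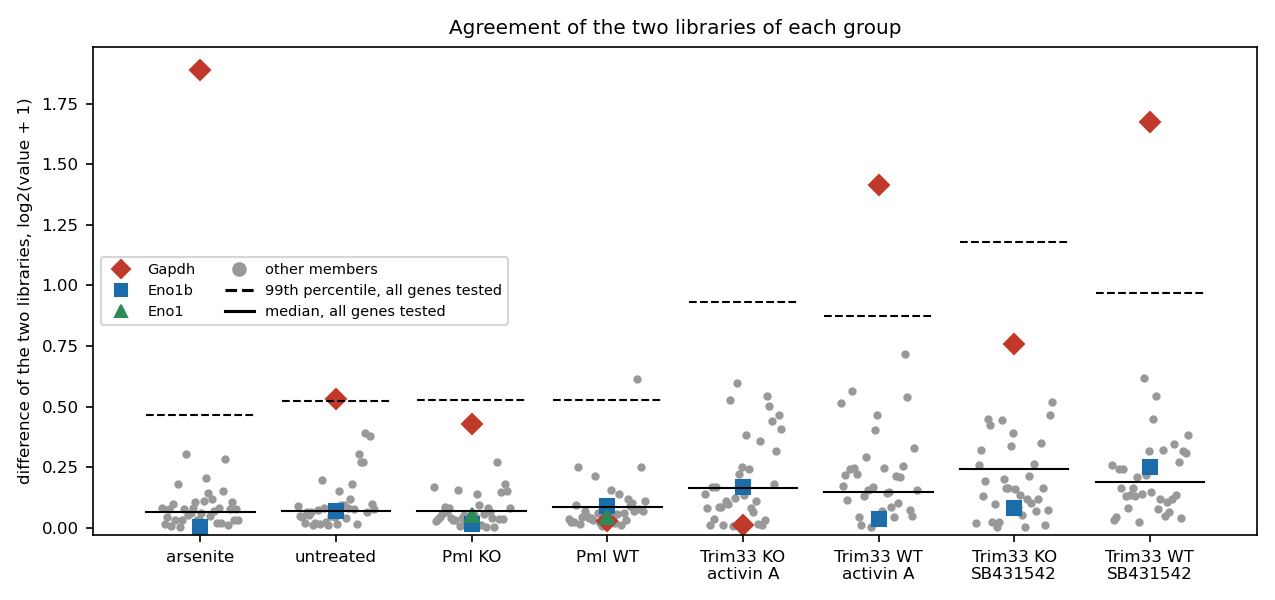
Absolute difference between the 2 libraries of each group on the log2(value + 1) scale, for Gapdh, Eno1b, Eno1 and the other genes of the list that were tested, with the median and 99th percentile of all genes tested in that table as lines. Gapdh lies above the 99th percentile in 4 of 8 groups, and Eno1b in none.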

How the data were processed

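Libraries were made from total RNA with a TruSeq kit, per the labels' protocols. Without giving roles, the submitters' processing notes list featureCounts 2.0.1, SAMtools 1.9, DESeq2, Bowtie2 2.3.3, FastQC 0.11.5 and build mm10; no annotation or strand setting is stated. The authors deposited FPKM values for the Pml table and RPKM values for the arsenite table, as the tables are named; the deposited Trim33 table names no unit and was read as RPKM from its steps. Groups come from the sample titles; the untreated columns carry another letter and were matched as the remaining group. Depth came from 2353 single-exon genes, of whose values worth under 20 reads 90.5% to 94.5% were whole within 0.05 reads (24.6% to 26.3% in the Pml table, so its depth is unknown). Replicates differed beyond sampling noise (chi-square per degree of freedom 4.07 and 4.89 in the arsenite table, 14.1 to 27.5 in the Trim33 table), and no pair was identical.

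Genes that reached a value of 1 in 2 or more libraries were tested, table by table, with limma 3.58.1 (R 4.3.3, lmFit and eBayes with trend, two-sided, Benjamini-Hochberg over all genes tested) on log2(value + 1), which understates changes of low genes. Of the 39 genes, 39, 38 and 36 passed this filter in the Pml, arsenite and Trim33 tables; Eno1, Eno2 and Ndufa4l2 are the exceptions. Fits used the 4 libraries of the Pml table, the 4 of the arsenite table, and the Trim33 table as 4 group means over 8 libraries. The 27 date-like names per table were left out. Alternatives were a pseudocount of 0.1, no filter, trimmed-mean and quantile scaling, each library left out, the libraries of 1 agent alone, and a replicate block. The members and lists were chosen with earlier results of these data known. Every member is named; of the other lists, the 3 called genes with the smallest p per comparison, plus Hif1a, Epas1 and Vhl; 1 gene under this rule is not reported here. Shared words use GENCODE transcripts, and promoters come from RefSeq (GRCm38.p6). Fits were tested on simulated data. Python 3.11.15, numpy 2.4.6, pandas 2.3.3 and matplotlib 3.10.9 were used.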

Additional observations from a re-analysis of the deposited data

Results flagged for a closer look

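In 22 genes of the list the difference between the genotype labels with activin A was not the same as that with SB431542, by limma's test of the difference between both (adjusted p under 0.05). The values are log2 differences, activin A minus SB431542, of the labelled knockout minus labelled wild-type change. Those below 0 were Pdk1 (-2.94), Egln3 (-1.99), Eno3 (-1.95), Bnip3 (-1.80), Slc2a1 (-1.43), Slc16a3 (-1.42), Pgk1 (-1.25), Aldoa (-1.07), Pfkl (-1.04), Ldha (-1.02), Pfkfb3 (-0.98), Pfkm (-0.90), Gpi1 (-0.88), Pkm (-0.72), Tpi1 (-0.67), Pgam1 (-0.55). Those above 0 were Eno1b (3.80), P4ha2 (1.48), Pfkp (1.44), Hk1 (1.12), Ldhb (1.11), Pdk2 (0.86). Trim33 itself had a value of -5.23 in the same test, and its levels contradict the genotype labels of the SB431542 libraries, so these values cannot be read as an effect of the agents.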

How the results depend on the processing

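The calls of Pdk1, Ndufa4l2 and Vegfa in the tables where they were called, and of 21 of 30 genes with arsenite, 9 of 18 in the Pml table and 2 of 10 in each Trim33 comparison by label, remained under every alternative run. With no filter on low values, fewer genes of the list passed: 7 lower instead of 14 in the Pml table; 17 lower and 8 higher instead of 21 and 9 with arsenite (Aldoc, Pgam1, Egln3, Ankrd37 and P4ha2 lost the call); 1 higher and 2 lower instead of 2 and 8 in Trim33-knockout against wild-type cells with activin A; 2 higher instead of 9 with SB431542 by label; and 13 instead of 22 in the difference between both. Leaving out 1 library at a time gave 4 to 6 higher and 10 to 14 lower in the Pml table, 9 to 10 and 19 to 21 with arsenite, 1 and 1 to 3 with activin A, 1 to 7 and 1 with SB431542, and 13 to 21 for the difference; a lone library was assumed to vary like the others. With quantile normalisation the arsenite values of Pgam1, Pkm and Slc2a1 turned to 0.0515, 0.26 and 0.12. Pkm and Slc2a1 were called as rises there and as falls with trimmed-mean scaling. The arsenite value of Gapdh turned to 0.79 without arsenite replicate 1 and was -1.10 without arsenite replicate 2. The cause of these turns was not tested. The deviations of same-numbered libraries correlated at 0.02 in the Pml table. Among the Trim33 libraries, 4 of 6 pairs of groups were above 0.1, up to 0.60 between labelled knockout with activin A and labelled wild type with SB431542, and 2 were at -0.14, so that the numbers were not taken to pair the samples. With the replicate block no call changed in the Pml table, the counts were 4 higher and 9 lower with activin A, Slc2a1 and Slc16a3 among the lower, and 3 lower with SB431542, and a crossed pairing of the SB431542 libraries, chosen after seeing the data, gave 4 lower. No paired analysis was possible for arsenite because the untreated columns carry no replicate number from the labels. Depth limits the low genes: 1 RPKM is 31.2 to 48.5 reads per kilobase.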
